A study of Mus musculus with 15 samples.

Results

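The genes of the unfolded protein response and of the amino acid stress response were followed in cultured mouse lung fibroblasts. Members were the 37 genes of a named list that were found by symbol among the 18078 genes of the files, and all 37 were present, each with a single gene identifier. They form a chaperone arm of 19 genes and an ATF4 arm of 18 genes. RNA was sequenced from 15 libraries of primary lung fibroblasts, which are cells taken from lung tissue and grown in culture, of wild-type BALB/cJ mice. All groups shared this strain and genotype and were collected at 20 h. There were 5 groups of 3 libraries. Apart from untreated cells, each group received recombinant IL-33, either alone, together with IL-17A, together with IL-13, or together with the 2 partners at once (the triple combination). The alarmin IL-33 belongs to the IL-1 family, IL-13 drives type 2 responses by way of STAT6, and IL-17A belongs to type 3 responses. No group received IL-13 or IL-17A without IL-33. The labels do not give the animals, passages or cultures behind each library, so p-values cover no more than the spread seen between libraries, and this spread may be technical.

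The endoplasmic reticulum (ER) folds the collagens, matrix proteins and cytokines that fibroblasts secrete. When unfolded proteins build up there, the membrane sensors ATF6, IRE1 and PERK are activated. ATF6 and the spliced form of XBP1, which IRE1 makes, are transcription factors that switch on chaperones, disulfide isomerases and the machinery of ER-associated degradation. PERK, together with the amino acid sensor GCN2 and other kinases, phosphorylates eIF2α, which favours translation of the transcription factor ATF4. ATF4 switches on genes of amino acid synthesis, amino acid transport and tRNA charging, and the stress genes Ddit3, Trib3 and Chac1. ATF4 and XBP1 are controlled largely at translation and splicing, which gene-level values do not measure.

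The promoters of the chaperone arm were searched for the ER stress element, the classical site of ATF6 with NF-Y, which has a CCAAT box and a CCACG box with 9 free bases between them. RefSeq promoters (assembly GRCm38.p6, 250 bases before to 50 after each annotated start) matched 33 of the 37 members by symbol. The promoters of Hyou1, Atf6, Manf and Eif4ebp1 were not used here. The motif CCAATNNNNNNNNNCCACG was found on either strand in 7 of the 16 chaperone genes with a promoter, in 0 of the 17 ATF4 genes and in 39 of all 32851 promoters (0.119%). Members are counted as genes here and below, and the 32851 promoters belong to 27025 genes. The 7 stretches are printed 5′ to 3′ on the strand of the gene, with the element in capitals, in the reverse complement where it reads on the opposite strand. Hspa5 is given over 250 bases, and Hsp90b1 carries the element at 2 places, once on each strand.
Hspa5 (chr2:34771840-34772089, plus strand): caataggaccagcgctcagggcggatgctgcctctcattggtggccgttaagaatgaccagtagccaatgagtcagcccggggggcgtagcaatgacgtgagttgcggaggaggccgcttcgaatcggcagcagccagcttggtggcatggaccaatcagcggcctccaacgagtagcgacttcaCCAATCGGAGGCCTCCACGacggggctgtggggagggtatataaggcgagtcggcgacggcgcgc
Hsp90b1 (chr10:86705503-86705686, minus strand): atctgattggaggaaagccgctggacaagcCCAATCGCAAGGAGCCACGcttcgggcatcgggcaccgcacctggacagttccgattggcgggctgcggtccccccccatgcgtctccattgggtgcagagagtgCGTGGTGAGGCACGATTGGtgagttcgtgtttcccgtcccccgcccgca
Pdia6 (chr12:17266461-17266539, plus strand): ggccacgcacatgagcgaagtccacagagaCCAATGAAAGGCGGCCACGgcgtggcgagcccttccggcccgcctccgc
Creld2 (chr15:88819490-88819568, plus strand): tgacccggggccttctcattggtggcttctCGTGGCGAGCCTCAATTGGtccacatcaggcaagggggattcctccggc
Calr (chr8:84847045-84847123, minus strand): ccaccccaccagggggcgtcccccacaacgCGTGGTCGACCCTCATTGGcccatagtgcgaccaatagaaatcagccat
Canx (chr11:50325770-50325848, minus strand): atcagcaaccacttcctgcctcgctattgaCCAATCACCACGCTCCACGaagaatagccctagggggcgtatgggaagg
Dnajc3 (chr14:118937797-118937875, plus strand): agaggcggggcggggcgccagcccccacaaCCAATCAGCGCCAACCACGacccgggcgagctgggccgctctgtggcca
The element lay between 47 bases (Hspa5) and 212 bases (Hsp90b1) before the start. A shorter element, ATTGGNCCACG, searched after the sequences had been seen, was present in Herpud1 and Dnajb11 and in 12 of all promoters (0.0365%).

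The promoters of the ATF4 arm were searched for the core of the C/EBP-ATF response element, at which ATF4 binds with C/EBP partners. The core TGATGNAAT was found in 2 of the 17 ATF4 genes with a promoter (Nupr1 and Pycr1), in 0 of the 16 chaperone genes and in 0.965% of all promoters. A core shortened by 1 base, TGATGNAA, was searched after the sequences had been seen and includes the first motif. It was present in 6 of the 17 ATF4 genes, in Herpud1 of the chaperone arm and in 3.97% of all promoters. The 6 stretches are shown with the core in capitals, again read on either strand.
Trib3 (chr2:152344029-152344056, minus strand): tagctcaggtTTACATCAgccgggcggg
Chac1 (chr2:119351039-119351066, plus strand): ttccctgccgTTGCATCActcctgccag
Atf3 (chr1:191183426-191183453, minus strand): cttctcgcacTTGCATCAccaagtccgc
Asns (chr6:7693215-7693242, minus strand): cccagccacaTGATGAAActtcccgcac
Pycr1 (chr11:120643834-120643861, minus strand): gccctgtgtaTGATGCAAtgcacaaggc
Nupr1 (chr7:126625563-126625590, minus strand): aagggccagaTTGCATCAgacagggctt
A match is a string of letters in this window and not evidence of binding, and no match says only that these letters are not in these 300 bases.

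Levels are TPM as deposited, a measure of transcripts divided by length and scaled to a fixed total. TPM multiplied by the gene's span, introns included, gave whole reads within a tolerance of 0.05 for 89.81% to 91.11% of low values, against 23.08% to 24.25% with exon length. On that scale the libraries held 10549000 to 15118000 read-equivalents, and each member held at least 80.9 in every library (the lowest was Chac1). Changes are differences of log2(TPM + 1), tested with limma over the 13887 genes that reached 1 TPM in 3 or more libraries. Calls are adjusted p values below 0.05 (Benjamini-Hochberg over all tested genes). All 37 members exceeded 1 TPM in every library. A set of 6 libraries stood apart. In these 6 (all 3 of IL-33 with IL-13, replicates 2 and 3 of IL-33 with IL-17A, replicate 1 of the triple combination) the share of TPM from the mitochondrial genome was 3.50% to 3.87%, and in the other 9 it was 4.77% to 6.14%. A term for these 6 libraries was added as an alternative fit. Inside against outside the 6 libraries, 16.3% of tested genes were called, 1639 of 2262 of them lower, and so were 12 members, among them Ddit4 (0.52 higher), Atf4 (0.29 higher), Dnajb9 (-0.45) and Dnajc3 (-0.23). Because all IL-33 with IL-13 libraries lie inside, that term is estimated only from the IL-33 with IL-17A and triple groups. Of the 8 fibroblast markers, 7 or 8 averaged over 10 TPM in each group (Lum averaged 5.39 TPM in untreated cells). Macrophage genes were also abundant in all libraries, with all 8 markers averaging over 10 TPM in each group. Their summed level was 14255 to 14648 TPM in untreated cells, 13316 to 13576 with IL-33, 12274 to 13407 with IL-33 and IL-17A, 12196 to 12462 with IL-33 and IL-13, and 12279 to 12621 in the triple combination. The summed level of 8 fibroblast markers was 10179 to 11573, 9134 to 10009, 8425 to 9941, 7657 to 7936 and 6479 to 7152 TPM in the same order. Such sums are of TPM over gene span, so the macrophage and fibroblast sums are not compared with each other. Single markers went both ways. Among the macrophage markers, Lyz2 averaged 10299 TPM in untreated cells and 8738 in the triple combination, while Mrc1 averaged 51.4 TPM in untreated cells, 146 with IL-33 and IL-13 and 154 in the triple combination. When IL-13 was added to IL-33, 2 macrophage markers were called higher and 4 lower. Among the fibroblast markers, Dcn averaged 129 TPM in untreated cells and 319.6 in the triple combination, where 2 fibroblast markers were called higher and 6 lower. The epithelial sum (3 of 5 markers in the files) was 0.6 to 1.3 TPM in the 3 groups without IL-13, 2.7 to 3.2 with IL-33 and IL-13 and 3.4 to 3.5 in the triple combination. Its 1 tested marker, Cdh1, was called higher in the 3 combinations (log2 changes of 0.43, 1.25 and 1.43 with IL-17A, IL-13 and both added to IL-33), and Epcam was listed at 0 in untreated cells. The endothelial sum (4 of 5 markers) was 2.2 to 3.0 TPM and the lymphocyte and ILC2 sum (2 of 5 markers) 6.9 to 11.1 TPM. The 3 of 5 neutrophil and mast cell markers in the files summed to 100.4 to 107.3 TPM in untreated cells, 173.1 to 192.2 with IL-33, 221.4 to 238.1 with IL-17A added, 208.2 to 217.7 with IL-13 added and 245.3 to 303.8 with both. Nearly all of it came from S100a8 and Mcpt8, and Mpo averaged 0.281 TPM or less. The sum is that of a list and is not read as a level of neutrophils or mast cells. The part of these cell types in the member changes was not tested. In such bulk samples fewer cells of a type and less RNA per cell cannot be told apart.

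In all 4 comparisons with untreated cells the chaperone arm had more higher than lower calls, and the ATF4 arm more lower than higher calls. Against untreated cells, IL-33 raised 4 of 19 chaperone genes and lowered 1, where 5.92% of all tested genes were called higher and 8.28% lower. In the ATF4 arm it raised 1 of 18 genes and lowered 11. With IL-33 and IL-17A, 9 chaperone genes rose and 5 fell, and 1 ATF4 gene rose and 14 fell, beside 10.7% and 27.0% of all genes. With IL-33 and IL-13, 9 chaperone genes rose and 4 fell, and 1 ATF4 gene rose and 11 fell, beside 14.5% and 35.1%. In the triple combination 12 chaperone genes rose and 2 fell, and 1 ATF4 gene rose and 14 fell, beside 12.6% and 30.1%. The median log2 change of the chaperone arm was 0.07, 0.10, 0.18 and 0.30 in this order, that of the ATF4 arm -0.34, -0.52, -0.35 and -0.52, and that of all tested genes -0.05, -0.09, -0.12 and -0.10. The 4 comparisons share the untreated libraries. Averaged over the 19 chaperone genes, the untreated libraries lay -0.03 to 0.05 from their mean, and the treated ones 0.02 to 0.10 above it with IL-33, 0.04 to 0.16 with IL-33 and IL-17A, 0.19 in each IL-33 with IL-13 library and 0.30 to 0.37 in the triple combination. The average over the 18 ATF4 genes was -0.34 to -0.32 with IL-33, -0.49 to -0.44 with IL-33 and IL-17A, -0.41 to -0.32 with IL-33 and IL-13 and -0.60 to -0.49 in the triple combination. No treated library reached the untreated range in the ATF4 arm, and in the chaperone arm the groups without IL-13 overlapped it.

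**Figure D1:**
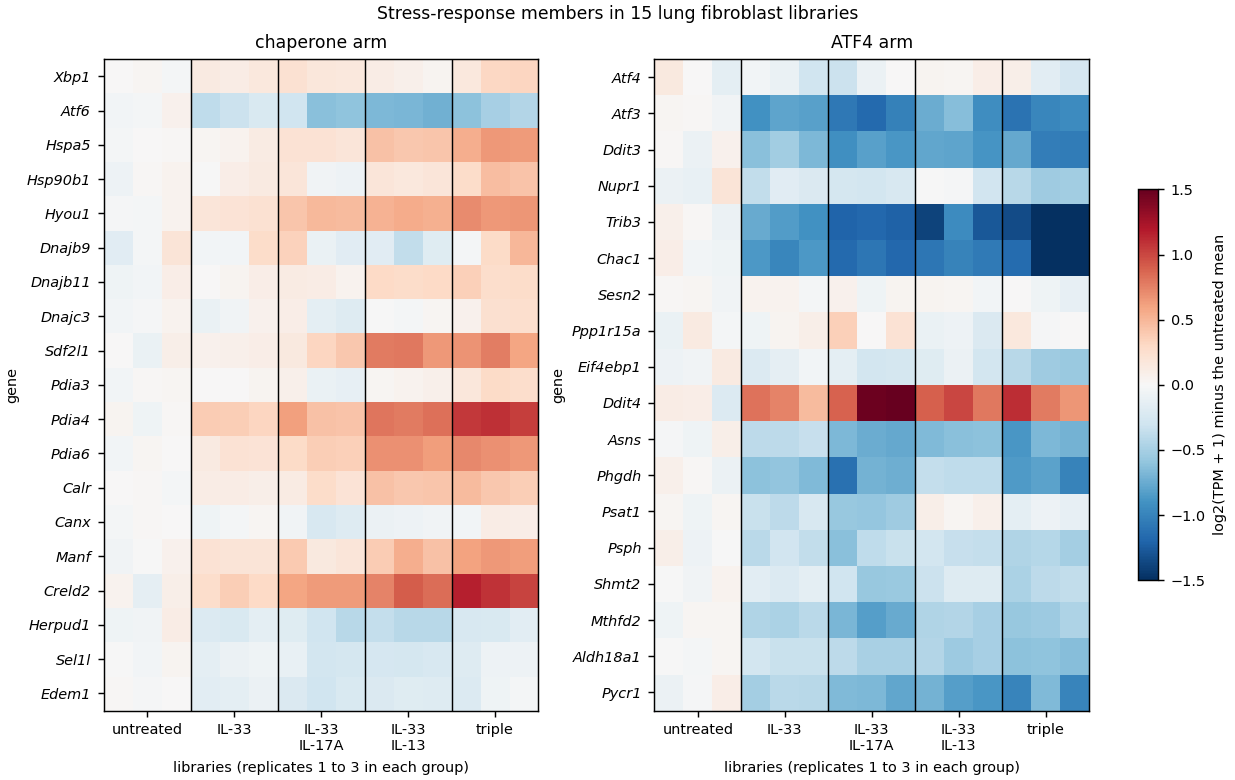
Level of each member in each library, as log2(TPM + 1) minus the mean of the untreated libraries, in red where higher and in blue where lower, with colours saturating at 1.5. Rows are genes of the chaperone arm (left) and ATF4 arm (right), columns are the 3 libraries of each group. Pdia4, Creld2, Hyou1 and Pdia6 are red in every treated library and Trib3, Chac1, Atf3 and Ddit3 are blue in every treated library.

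TPM is a share of the total, and another scaling moved the centre of all genes. Scaling by median-ratio size factors raised the median change of all genes by 0.13 for IL-33 with IL-13, 0.116 for the triple combination and 0.107 for IL-33 with IL-17A. Under it the calls of all genes were 7.99% higher and 6.14% lower for IL-33, 17.8% and 15.7% for IL-33 with IL-17A, 24.4% and 21.8% for IL-33 with IL-13, and 20.4% and 18.5% for the triple combination. In the same order the chaperone arm then had 7, 10, 13 and 15 genes higher and 1, 4, 3 and 1 lower, and the ATF4 arm 1, 2, 3 and 1 higher and 11, 12, 8 and 13 lower. With the term for the 6 libraries, the chaperone arm had 7 higher and 4 lower for IL-33 (all genes 7.3% and 12%), 9 and 4 for IL-33 with IL-17A (8.96% and 15.9%), 13 and 2 for IL-33 with IL-13 (9.27% and 16.3%), and 15 and 2 for the triple combination (13.6% and 29.4%). The ATF4 arm had 1 higher and 12 lower, 1 and 13, 0 and 10, and 1 and 13 in these fits. IL-33 and untreated libraries all lie outside the 6, so for IL-33 the term alters the spread and not the changes.

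**Figure D2:**
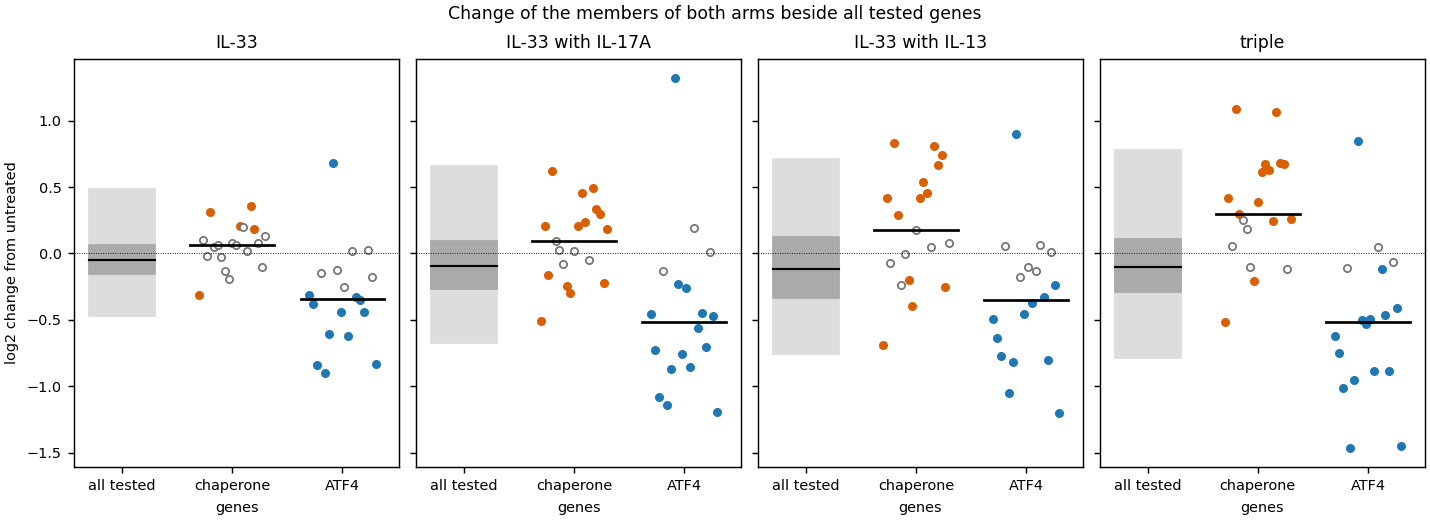
Log2 change against untreated in the 4 treated groups for all tested genes (dark grey, 25th to 75th percentile; light grey, 5th to 95th; line, median) and for each member of the chaperone and ATF4 arms. Filled points are called members, open points are not called, and horizontal lines are arm medians. The ATF4 medians of -0.34 to -0.52 lie under the 25th percentile of all genes (-0.16 to -0.33) in every panel.

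Per kilobase of exon the most abundant members were chaperones. Calr was the highest member at 467 RPM (read-equivalents scaled to a fixed total) per kilobase of exon, averaged over the 15 libraries, followed by Pdia3 at 304, Hsp90b1 at 269 and Hspa5 at 243. The lowest of this arm was Atf6 at 10.2. In the ATF4 arm Atf4 itself was highest at 75.5, followed by Ddit4 at 62.3, and Trib3 and Chac1 were at 7.5 each. All other levels below are TPM over gene span and are compared only within a gene.

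Hspa5 encodes BiP, the Hsp70 chaperone of the ER lumen that also holds the stress sensors inactive (GRCm38 chr2:34771970-34777547, ENSMUSG00000026864). Its level was 1674, 1723 and 1739 TPM in the untreated libraries, 1745, 1777 and 1858 with IL-33, 1997, 1993 and 1941 with IL-17A added, 2328, 2259 and 2291 with IL-13 added, and 2506, 2688 and 2656 in the triple combination. All 6 libraries given IL-13 were above the 9 without it, and the 3 triple libraries were the highest. IL-33 alone gave a log2 change of 0.07 ± 0.03 (SE), which was not called (adjusted p = 0.224) although the 3 libraries lay above the untreated ones. IL-33 with IL-17A raised it by 0.21 ± 0.03 (adjusted p = 0.000365), IL-33 with IL-13 by 0.42 ± 0.03 (6.99e-07) and the triple combination by 0.61 ± 0.03 (1.38e-08). Hyou1, an Hsp110-type exchange factor that works with BiP (chr9:44379490-44392369), stood at 210.3, 209 and 221 TPM in untreated cells and at 242, 246 and 249 with IL-33. It stood at 285, 299.6 and 296 with IL-17A added, 306, 315 and 308 with IL-13 added and 351, 334 and 339 with both. The 5 groups did not overlap. Hyou1 rose in all 4 comparisons, by 0.20, 0.46, 0.54 and 0.67. Hsp90b1, the Hsp90 of the ER (GRP94), was called in the triple combination, at 0.39 ± 0.07 (adjusted p = 0.000624), with changes of 0.08, 0.02 and 0.18 elsewhere.

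Among the disulfide isomerases, Pdia4 and Pdia6 rose in all 4 comparisons and Pdia3 in 1. Pdia4 (ERp72, chr6:47796141-47813430) had 135, 126 and 133 TPM in untreated cells, 171, 169 and 164 with IL-33, 201, 178 and 177 with IL-17A added, 230.5, 226 and 233 with IL-13 added, and 274, 281 and 270.4 in the triple combination. No group overlapped another, and the means rose from 131 ± 4.90 (SD, n = 3) to 275 ± 5.35. The log2 changes were 0.35 ± 0.05, 0.49 ± 0.05, 0.81 ± 0.05 and 1.06 ± 0.05 (SE), with adjusted p from 0.000198 to 1.83e-09. Pdia6, an isomerase that also attenuates IRE1, rose by 0.18, 0.34, 0.67 and 0.68. Its untreated libraries had 163, 171 and 169 TPM and its IL-33 with IL-13 libraries 271, 269 and 260.2, next to 278, 269 and 263 in the triple combination, which overlapped. Pdia3 (ERp57), which acts on glycoproteins with calnexin and calreticulin, was called only in the triple combination among the 4, at 0.24 ± 0.05.

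Calr, the soluble lectin chaperone and calcium store of the ER, had 2536 ± 39.8 TPM in untreated cells and 3390 ± 31.5 with IL-33 and IL-13 (SD, n = 3). It rose by 0.20 with IL-33 and IL-17A, 0.42 with IL-33 and IL-13 and 0.42 in the triple combination, and IL-33 alone gave 0.10 (adjusted p = 0.0933). Its membrane-bound relative Canx was called in 1 of the 4 comparisons, with IL-33 and IL-17A, at -0.16 ± 0.05. That call ended, among other settings, under median-ratio scaling (-0.04, adjusted p = 0.447), with the term for the 6 libraries (-0.05, 0.277) and without IL-33 with IL-17A replicate 2 or 3 or untreated replicate 2 or 3 (adjusted p 0.0746 to 0.125).

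Among the co-chaperones, Sdf2l1 and Dnajb11 rose in both groups with IL-13, and Dnajb9 and Dnajc3 were called in none of the 4 comparisons. Sdf2l1, which keeps BiP cycling on its clients together with Dnajb11, had 181, 169 and 193 TPM in untreated cells, 188, 191 and 193 with IL-33, 201, 226 and 239 with IL-17A added, 309.9, 314 and 284 with IL-13 added and 288, 309 and 272 in the triple combination. The 6 libraries that received IL-13 were all above the 9 that did not. Sdf2l1 rose by 0.74 ± 0.07 with IL-33 and IL-13 (adjusted p = 4.16e-06) and by 0.68 ± 0.07 in the triple combination (7.19e-06). Its rise of 0.29 with IL-33 and IL-17A was no longer called with the term for the 6 libraries (0.22, adjusted p = 0.0683). Dnajb11 (ERdj3) rose by 0.29 and 0.30 in the 2 groups with IL-13, at 86.6 and 87.4 TPM against 70.9 untreated. Dnajb9 (ERdj4) is a target of XBP1 that represses IRE1, and Dnajc3 (p58IPK) is an inhibitor of PERK. Dnajb9 varied widely within groups, with 169.5, 187 and 219 TPM in untreated and 187, 234 and 270.2 in the triple libraries. With the term for the 6 libraries, both were called higher in the triple combination (Dnajb9 0.40, Dnajc3 0.26).

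Creld2 and Manf are small proteins of the ER that are released under stress. Creld2 (chr15:88819646-88826683) had 53.8, 47 and 55.4 TPM in untreated cells, 62.7, 67.1 and 64.2 with IL-33, 78.9, 81.3 and 81.6 with IL-17A added, 87.9, 98.3 and 93.9 with IL-13 added, and 118, 112 and 106 in the triple combination. The 5 groups did not overlap, and the mean went from 52.1 ± 4.43 to 112 ± 5.87 TPM (SD, n = 3). Its log2 changes were 0.31 ± 0.06, 0.62 ± 0.06, 0.83 ± 0.06 and 1.09 ± 0.06 (SE), with adjusted p from 0.0046 to 2.57e-08, the largest of the arm in the triple combination. Manf rose in 3 comparisons, by 0.24, 0.45 and 0.63, and IL-33 alone gave 0.20 (adjusted p = 0.0532).

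**Figure D3:**
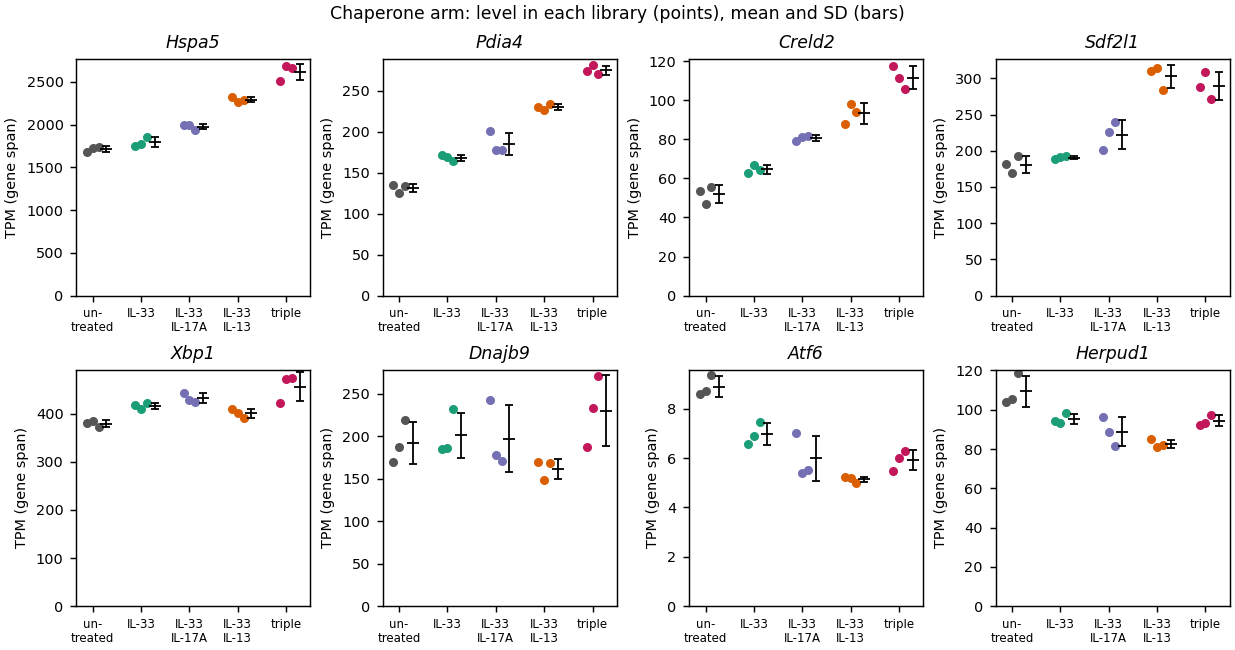
TPM over gene span of 8 chaperone-arm genes in each library (points) with group mean and SD (bars, n = 3), from untreated to the triple combination. Pdia4 and Creld2 step up through the 5 groups, Sdf2l1 is high in the 6 libraries with IL-13, Dnajb9 overlaps between groups, and Atf6 and Herpud1 are below untreated in every treated library.

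Of the transcription factors of this arm, Atf6 fell in all 4 comparisons and Xbp1 rose in 2, and the 3 degradation genes had lower calls. Atf6, the gene of the sensor and transcription factor ATF6, had 8.60, 8.72 and 9.36 TPM in untreated cells, 6.58, 6.91 and 7.45 with IL-33, 7.01, 5.41 and 5.53 with IL-17A added, 5.22, 5.17 and 5.01 with IL-13 added, and 5.47, 6.01 and 6.28 in the triple combination. All 12 treated libraries were below the 3 untreated ones. Its log2 changes were -0.31, -0.51, -0.69 and -0.52. The call with IL-33 alone (adjusted p = 0.0221) ended without IL-33 replicate 1 (0.0907) or 2 (0.0687) or untreated replicate 2 (0.0518) or 3 (0.0867). Xbp1 rose with IL-33 and IL-17A (0.19) and in the triple combination (0.26), with 379.7 ± 7.43 TPM in untreated and 456 ± 29.6 in triple libraries. It was not called with IL-33 (0.13, adjusted p = 0.0518) or with IL-33 and IL-13 (0.08, adjusted p = 0.138).

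Herpud1, which organises the ER degradation complex, had 109 ± 7.91 TPM in untreated cells and 82.7 ± 2.04 with IL-33 and IL-13. It fell by 0.30, 0.40 and 0.21 in the 3 combinations. Among the 9 libraries outside the 6, where IL-33 with IL-17A keeps 1 library, its change with IL-33 and IL-17A was -0.18 (adjusted p = 0.195), that of Sel1l -0.12 (0.187) and that of Atf6 -0.30 (0.0528), all without a call. In the triple combination the fall was lost under median-ratio scaling (-0.08, adjusted p = 0.243) and without untreated replicate 3 (adjusted p = 0.0691). Sel1l, the adaptor of the ubiquitin ligase HRD1, and Edem1, which marks misfolded glycoproteins for disposal, fell with IL-33 and IL-17A (-0.22 and -0.25) and with IL-33 and IL-13 (-0.25 and -0.20). Both calls with IL-33 and IL-13 ended with the term for the 6 libraries (adjusted p = 0.0673 and 0.16), and that of Edem1 also under median-ratio scaling (0.241). In the triple combination they gave -0.12 and -0.10 and were not called.

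In the ATF4 arm the Atf4 transcript itself did not change by the test. It had 984, 897 and 804 TPM in untreated cells, 867, 834 and 726 with IL-33, 713, 842 and 898 with IL-17A added, 920.5, 913 and 954 with IL-13 added, and 949, 802 and 746 in the triple combination. Every treated group overlapped the untreated one, while the IL-33 with IL-13 libraries lay above those of IL-33 and of IL-33 with IL-17A. The 4 log2 changes against untreated were -0.14, -0.13, 0.06 and -0.11. With the term for the 6 libraries Atf4 was called lower with IL-33 and IL-17A (-0.33, adjusted p = 0.0244). The transcription factors downstream of ATF4 fell. Atf3, an ATF-family factor induced early in stress, had 8.44, 8.38 and 7.92 TPM in untreated cells, 3.94, 4.33 and 4.25 with IL-33, 3.40, 3.12 and 3.59 with IL-17A added, 4.52, 4.95 and 3.83 with IL-13 added, and 3.29, 3.69 and 3.80 in the triple combination. Its log2 changes were -0.84 ± 0.08, -1.08 ± 0.08, -0.77 ± 0.08 and -1.01 ± 0.08 (SE), on a log2(TPM + 1) scale that understates changes at such low levels.

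Ddit3, the gene of the pro-apoptotic factor CHOP, had 72.2, 66.8 and 74.6 TPM in untreated cells, 45.7, 49.3 and 44.3 with IL-33 and 41.2, 34.2 and 33.7 in the triple combination. It fell in all 4 comparisons, with log2 changes from -0.61 with IL-33 to -0.95 in the triple combination, and all 12 treated libraries were below the untreated ones. Nupr1, a small stress-induced chromatin protein, fell in the triple combination (-0.49, adjusted p = 0.000927). Its call with IL-33 and IL-17A (-0.26) ended, among other settings, under median-ratio scaling (adjusted p = 0.272), with the term for the 6 libraries (0.0894), and without any of the 3 IL-33 with IL-17A libraries or untreated replicate 3 (0.0737 to 0.184).

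The stress effectors Trib3 and Chac1 fell in all 4 comparisons. Trib3 (chr2:152337422-152344032, ENSMUSG00000032715), a pseudokinase that feeds back on ATF4 and CHOP, had 52.6, 50.8 and 46.8 TPM in untreated cells, 29.2, 27.5 and 26.1 with IL-33, 21.2, 21.6 and 21.0 with IL-17A added, 18.5, 25.5 and 20.2 with IL-13 added, and 19.2, 17.0 and 17.0 in the triple combination. The log2 changes were -0.83 ± 0.10, -1.20 ± 0.10, -1.20 ± 0.10 and -1.45 ± 0.10 (SE), with adjusted p from 6.28e-05 to 9.81e-08. Chac1 (chr2:119351229-119354381), an enzyme that degrades glutathione, had 86.0, 77.7 and 76.5 TPM in untreated cells, 43.7, 40.0 and 43.6 with IL-33, 35.2, 37.1 and 34.7 with IL-17A added, 37.1, 39.5 and 37.8 with IL-13 added, and 35.3, 26.0 and 24.6 in the triple combination. Its log2 changes were -0.90, -1.14, -1.05 and -1.47. For both genes the untreated libraries were above every treated library. Eif4ebp1, a repressor of cap-dependent translation, fell in the triple combination (-0.50 ± 0.07) and, less, in the IL-33 with IL-17A group (-0.23). The latter call ended, among other settings, under median-ratio scaling (adjusted p = 0.233), with the term for the 6 libraries (0.0871) and without IL-33 with IL-17A replicate 2 or 3 or untreated replicate 3 (0.0787 to 0.108).

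The other 3 effectors did not fall. Ddit4 (REDD1, chr10:59949669-59951834), an inhibitor of mTORC1 that also responds to glucocorticoids and hypoxia, was the 1 member of the arm that rose. It had 346, 343 and 278 TPM in untreated cells, 565, 538 and 448 with IL-33, 592, 894 and 983 with IL-17A added, 599, 645 and 555 with IL-13 added, and 692, 549 and 510.1 in the triple combination. All treated libraries were above the untreated ones, and the IL-33 with IL-17A group was spread most, at 823 ± 205 TPM (SD, n = 3). The log2 changes were 0.68 ± 0.18, 1.32 ± 0.18, 0.90 ± 0.18 and 0.85 ± 0.18 (SE). The call with IL-33 (adjusted p = 0.0221) ended without IL-33 replicate 1 (0.0873) or 2 (0.0746) or untreated replicate 3 (0.0927). That with IL-33 and IL-13 (adjusted p = 0.00133) ended with the term for the 6 libraries (0.37, adjusted p = 0.113). Sesn2, a leucine sensor of the mTORC1 pathway, had 36.6 TPM in untreated and 35.1 in triple libraries, and no log2 change beyond 0.06 in size. Ppp1r15a (GADD34), the phosphatase subunit that reverses eIF2α phosphorylation, gave 0.02, 0.19, -0.13 and 0.05. Neither was called.

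Asparagine and serine synthesis genes fell with IL-33. Asns, asparagine synthetase, had 76.0, 73.9 and 82.2 TPM in untreated cells, 58.6, 58.4 and 60.6 with IL-33, 48.1, 45.8 and 45.1 with IL-17A added, 48.7, 49.5 and 50.0 with IL-13 added, and 41.8, 48.1 and 46.9 in the triple combination. Its log2 changes were -0.38 ± 0.05, -0.73 ± 0.05, -0.64 ± 0.05 and -0.75 ± 0.05 (SE). The serine pathway runs from Phgdh through Psat1 to Psph. Phgdh, its first enzyme, had 47, 45.0 and 41.9 TPM in untreated cells, 28.8, 29.2 and 27.8 with IL-33, 20.1, 26.9 and 26.4 with IL-17A added, 34.6, 34.0 and 34.1 with IL-13 added, and 24.4, 25.2 and 21.7 in the triple combination. It fell in all 4 comparisons, by 0.62, 0.85, 0.37 and 0.88 on the log2 scale. Psph, its last enzyme, fell by 0.35, 0.45, 0.33 and 0.47. Under median-ratio scaling the calls of Phgdh (-0.22, adjusted p = 0.12) and Psph (-0.18, adjusted p = 0.0883) with IL-33 and IL-13 ended.

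Psat1, the aminotransferase in the middle of the serine pathway, was the 1 gene of the arm called higher when IL-13 was added to IL-33. It had 43.9, 41.1 and 43.8 TPM in untreated cells, 33.7, 32.3 and 36.2 with IL-33, 28.6, 28.4 and 29.4 with IL-17A added, 45.7, 43.9 and 45.4 with IL-13 added, and 38.6, 40.6 and 39.3 in the triple combination. It fell with IL-33 (-0.33 ± 0.04, adjusted p = 0.000269) and in the IL-33 with IL-17A group (-0.56 ± 0.04, 8.28e-07). With IL-33 and IL-13 the groups overlapped and the change was 0.07 ± 0.04 (adjusted p = 0.237). The triple combination gave -0.12 (adjusted p = 0.0484), a call that ended, among other settings, with the term for the 6 libraries (adjusted p = 0.0727) and without triple combination replicate 1 or 3 or untreated replicate 1 or 3 (0.101 to 0.136). Its direction turned under median-ratio scaling (0.013, adjusted p = 0.825).

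One-carbon and proline genes fell too. Mthfd2, the mitochondrial folate dehydrogenase, had 59.3 ± 2.12 TPM in untreated cells and 34.7 ± 1.85 with IL-33 and IL-17A (SD, n = 3), and its log2 changes were -0.44, -0.76, -0.46 and -0.53. Shmt2, which splits serine into glycine and a one-carbon unit in mitochondria, fell in the 3 combinations (-0.47, -0.24 and -0.41). With IL-33 and IL-13 its call ended under median-ratio scaling (-0.09, adjusted p = 0.196) and with the term for the 6 libraries (-0.06, adjusted p = 0.57). Aldh18a1 and Pycr1 make proline, an abundant residue of collagen. Aldh18a1 had 33.1, 32.6 and 33.8 TPM in untreated cells and 21.4, 21.5 and 20.9 in the triple combination, with log2 changes of -0.31, -0.45, -0.50 and -0.62. Pycr1 had 25.4, 26.7 and 29.1 TPM in untreated cells and 13.1, 16.7 and 13.1 in the triple combination, with changes of -0.44, -0.70, -0.80 and -0.88. The mean of Col1a1, a collagen gene and fibroblast marker, was 6107 TPM in untreated cells and 3189 in the triple combination. That of Col1a2 was 2015 and 1119 TPM. Col3a1 averaged 1577 TPM in untreated cells, 1643 with IL-33 and IL-17A and 1349 in the triple combination. A link between proline genes and collagen genes was not tested.

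**Figure D4:**
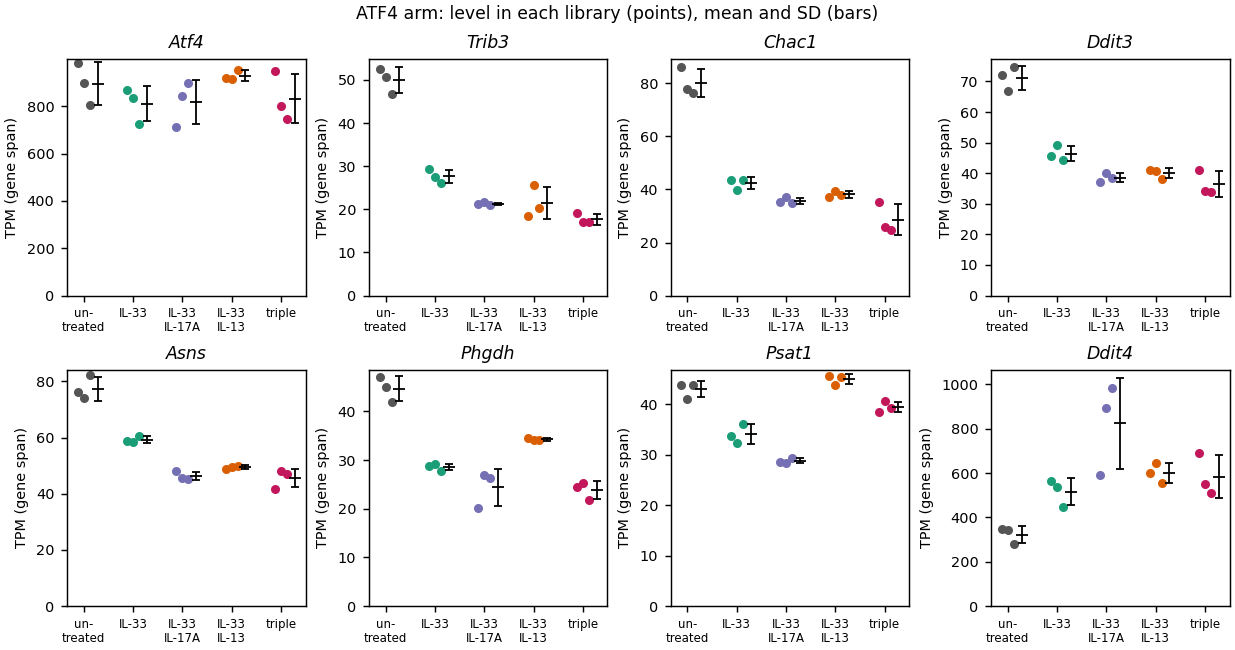
TPM over gene span of 8 ATF4-arm genes in each library (points) with group mean and SD (bars, n = 3). Trib3, Chac1, Ddit3 and Asns are lower in all treated libraries, Psat1 with IL-33 and IL-13 overlaps the untreated libraries, Ddit4 is higher in all treated libraries, and Atf4 overlaps between untreated and each treated group.

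Across the 4 comparisons with untreated cells, 4 chaperone genes were called higher each time (Creld2, Hyou1, Pdia4 and Pdia6) and 1 was called lower each time (Atf6). In the ATF4 arm 10 genes were called lower each time (Atf3, Ddit3, Trib3, Chac1, Asns, Phgdh, Psph, Mthfd2, Aldh18a1 and Pycr1) and 1 was called higher each time (Ddit4). How many of all tested genes were called in all 4 was not counted. The 4 comparisons share the untreated libraries, so repeated calls are not independent. Set beside the sequences above, the 7 chaperone genes with an ER stress element had 5 called higher and 0 lower in the triple combination, and the other 9 with a promoter had 5 higher and 1 lower. In that comparison, the only one described here, 12.6% of all tested genes were called higher and 30.1% lower. Of the 7, Canx and Dnajc3 were the members that were not called there. The 6 ATF4 genes with the shortened core had 6 called lower in the triple combination, and the other 11 with a promoter had 7 lower and 1 higher. That core was chosen after the sequences had been seen. These counts are too small to rank the groups and were not tested.

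Adding IL-13 to IL-33 asked what the type 2 cytokine contributes on top of the alarmin. It raised 9 of 19 chaperone genes and lowered 3, beside 10% and 22.4% of all tested genes, and in the ATF4 arm it raised 1 of 18 and lowered 5. The 9 members whose calls held under every setting run were Calr, Creld2, Hspa5, Hyou1, Manf, Pdia4, Pdia6 and Sdf2l1 of the chaperone arm and Psat1 of the ATF4 arm. Sdf2l1 rose by 0.66 ± 0.07 (adjusted p = 3.44e-05), Creld2 by 0.52 ± 0.06 (8.86e-05), Pdia6 by 0.48 ± 0.03 (1.16e-06) and Psat1 by 0.39 ± 0.04 (5.8e-05). The 3 lower chaperone calls (Atf6, Herpud1, Sel1l) and 4 of the 5 lower ATF4 calls (Asns, Trib3, Aldh18a1, Pycr1) were lost with the term for the 6 libraries, which left 11 chaperone genes higher and 0 lower, and 1 ATF4 gene higher and 1 lower, beside 4.75% and 5.48% of all genes. The fall of Ddit3 (-0.21) ended without any 1 of the 6 libraries compared (adjusted p up to 0.149). The median change of the ATF4 arm was -0.04 and turned to 0.06 under median-ratio scaling, where the chaperone arm had 11 higher and 1 lower and the ATF4 arm 2 and 2, beside 16.6% and 14.7% of all genes.

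Adding IL-13 to IL-33 with IL-17A gave the most one-sided count of the chaperone arm: 14 of 19 rose and 0 fell, beside 6.7% and 9.14% of all genes. The ATF4 arm had 2 genes higher and 2 lower. Pdia4 rose by 0.57 ± 0.05 (adjusted p = 5.66e-06), Creld2 by 0.46 ± 0.06 (0.000315), Hspa5 by 0.40 ± 0.03 (5.37e-06) and Psat1 by 0.44 ± 0.04 (2.98e-05). These 4, Hyou1 and Pdia6 were called under every setting run. Here the groups compared both hold libraries of each kind, and the term for the 6 libraries left the chaperone count at 14 and 0 and the ATF4 count at 2 and 2, beside 6.79% and 10.8% of all genes. Outside the 6 libraries IL-33 with IL-17A keeps 1 library, and inside them the triple combination keeps 1. Counts of calls from these fits are therefore not given for this comparison. Manf, at 0.39 with all libraries, gave 0.25 outside and 0.44 inside. Eif4ebp1, at -0.28 with all libraries, gave -0.40 outside and -0.15 inside. The calls of Dnajc3 and Canx ended without IL-33 with IL-17A replicate 2 or 3 or triple combination replicate 2 or 3 (adjusted p 0.0558 to 0.142), as did that of Edem1 (0.069 to 0.151). With the compared groups only, these 3 and Hsp90b1, Dnajb11, Sdf2l1, Pdia3 and Calr lost their calls (adjusted p 0.0542 to 0.234). That fit called 788 of all tested genes, against 2199 in the main fit.

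Adding IL-17A moved fewer members. On top of IL-33 it raised 4 chaperone genes and lowered 0 (Creld2 0.31, Hyou1 0.25, Pdia6 0.15, Hspa5 0.14), and in the ATF4 arm it raised Ddit4 and lowered 7 genes, beside 3.54% and 6.22% of all genes. The lower genes included Trib3 (-0.36), Asns (-0.35, adjusted p = 0.00114), Mthfd2 (-0.31) and Psat1 (-0.23). None of the 12 calls held under every setting. The settings here included the 9 libraries outside, where IL-33 with IL-17A keeps 1 library, assumed to vary like the others. Hyou1, Asns and Mthfd2 lost their calls in that fit alone, with changes of 0.21, -0.29 and -0.24. That fit could not be made for IL-13 added to IL-33, so the calls that held in the 2 comparisons were put to unlike settings. With the term for the 6 libraries 3 chaperone genes were higher and 0 lower, and 0 ATF4 genes higher and 6 lower, beside 2.66% and 3.36%. Under median-ratio scaling the chaperone arm had 6 higher and 0 lower and the ATF4 arm 1 and 4, beside 5.15% and 4.52%. The Ddit4 rise of 0.65 ± 0.18 was 0.30 with the term (adjusted p = 0.31) and 0.20 in the libraries outside (adjusted p = 0.738), and ended without any of 5 libraries in turn, IL-33 replicates 1 to 3 and IL-33 with IL-17A replicates 2 and 3 (0.0568 to 0.167). Trib3 lost its call without any of the same 5 (0.052 to 0.103).

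On top of IL-33 with IL-13, IL-17A raised 6 chaperone genes and lowered 0, and raised 0 and lowered 5 ATF4 genes, beside 3.4% and 4.05% of all genes. Pdia4 rose by 0.26 ± 0.05 (adjusted p = 0.00546) and Phgdh fell by 0.51 on the log2 scale (SE 0.09, 0.00532), and these 2 were called under every setting run. Chac1 (-0.42) lost its call without any of the 3 IL-33 with IL-13 libraries or triple combination replicate 2 or 3 (adjusted p 0.0727 to 0.131), and so did Pdia3 (0.19, 0.0724 to 0.145). With the term for the 6 libraries 4 chaperone genes were higher and 0 lower, and 0 ATF4 genes higher and 3 lower, beside 1.72% and 2.35%. Whether IL-17A acted differently with and without IL-13 was tested as an interaction. In limma 0 of the 37 members were called for it, beside 0.338% of all genes. At an unadjusted p under 0.05 the count was 17 members and 3750 of 13887 genes, and the smallest adjusted p of a member was 0.0852. Without IL-33 with IL-17A replicate 1 the interaction called 20 members and 3038 of all 13887 genes. Without triple combination replicate 1 it called 12 members and 2281 genes. Counts rose over all tested genes too, though by a smaller share than among the 37 members. The group that lost a library then held libraries of 1 kind only, inside or outside the 6. The rise is not read as a result about the members.

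**Figure D5:**
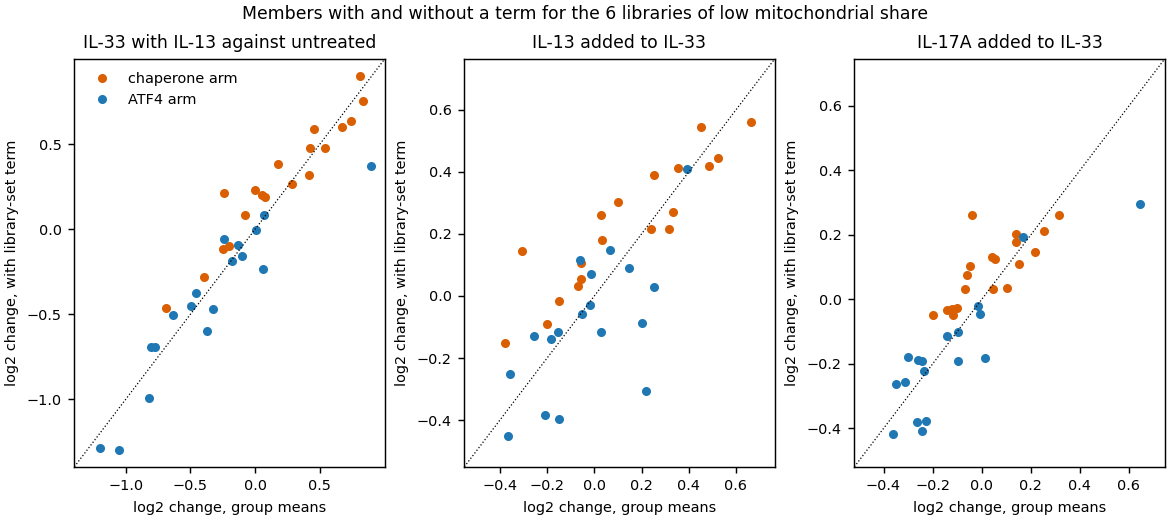
Log2 change of each member from the group means (x axis) and with a term for the 6 libraries of low mitochondrial share (y axis) in 3 comparisons, with orange for the chaperone arm, blue for the ATF4 arm and a dotted line of equality. Ddit4 lies far below the line in the left and right panels (0.90 against 0.37, and 0.65 against 0.30), and in the middle panel the chaperone points with values below 0 move toward 0 or above it.

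Other genes of the same pathways were counted from lists. In the same 4 comparisons with untreated cells, 8.28%, 27.0%, 35.1% and 30.1% of all tested genes were called lower and 5.92%, 10.7%, 14.5% and 12.6% higher. Of 12 cytosolic tRNA synthetases, which load amino acids for translation and are ATF4 targets, 9 fell with IL-33, 12 with IL-33 and IL-17A, and 9 each with IL-33 and IL-13 and in the triple combination, with 0 rising. In the triple combination Cars gave -0.58 and Aars -0.54. Their medians were -0.24, -0.37, -0.31 and -0.32, and under median-ratio scaling -0.18, -0.26, -0.16 and -0.19, with 1 rising in the triple combination. Of 9 tested amino acid transporters, 5, 6, 7 and 8 fell and 0, 0, 1 and 1 rose in the same order. In the triple combination Slc7a3, a cationic amino acid carrier, gave -1.22 and Slc7a5, the large neutral amino acid carrier, -1.15. Adding IL-13 to IL-33 raised Slc1a5, a glutamine carrier, by 0.54 and gave Slc38a2, another one, -0.55.

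The remaining ATF4-linked list had lower calls at a share near that of all genes in both groups with IL-13 (6 of 18, against 35.1% and 30.1%). Of 18 tested genes 2 rose and 2 fell with IL-33. The counts were 3 higher and 8 lower in the IL-33 with IL-17A group and 2 higher and 6 lower in each group with IL-13. Cebpb, a C/EBP partner of ATF4 that also answers inflammatory cytokines, rose by 0.82 with IL-33 and 1.05 in the triple combination. Gpt2, alanine aminotransferase, gave -0.40 with IL-33 and Vldlr, the VLDL receptor, -0.93 in the triple combination. The median of this list was -0.11 in both groups with IL-13 and turned to 0.04 (IL-33 with IL-13) and 0.02 (triple) under median-ratio scaling.

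On the ER side, 10 of 16 genes of translocation and glycosylation rose and 1 fell in the triple combination, and 8 rose and 4 fell with IL-33 and IL-13, against 2 and 0 with IL-33 alone and 3 and 2 with IL-33 and IL-17A. Sec61g, a subunit of the translocation channel, gave 0.64 and Sec61b 0.37 in the triple combination. Of 17 other folding and oxidation genes, 1, 3, 4 and 4 rose and 1, 2, 2 and 3 fell. P4hb, protein disulfide isomerase and a subunit of collagen prolyl hydroxylase, rose by 0.40 and Pdia5 gave -0.54 in the triple combination. Of 9 sensors and regulators, 2, 2, 1 and 2 rose and 1, 3, 4 and 4 fell. Creb3l1, a transcription factor related to ATF6 that acts on collagen genes, rose by 0.38 with IL-33 and 0.74 with IL-33 and IL-17A. Of 13 other genes of ER-associated degradation, 0, 2, 2 and 3 rose and 0, 3, 6 and 5 fell, with Herpud2 at -0.53 with IL-33 and IL-13. Derl3, a degradation channel protein, rose by 1.39 when IL-13 was added to IL-33 with IL-17A. These counts stand against the shares of all genes given above, and nothing particular to a list is read from them. Counts of all 4 lists depended on scaling. Under median-ratio scaling the translocation and glycosylation list had 4 higher and 0 lower with IL-33, 10 and 0 when IL-17A joined it, 10 and 1 with IL-33 and IL-13, and 11 and 0 in the triple combination. Under median-ratio scaling in the triple combination 5 folding genes rose and 2 fell, 3 sensors and regulators rose and 1 fell, and 5 degradation genes rose and 1 fell.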

How the data were processed

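Expression was measured by RNA-seq in 15 libraries, 5 groups of 3, grouped by the treatment label. Replicates were numbered in accession order, which pairs nothing. Per the submitters' processing notes, HISAT2 and the build mm10 were used. How TPM was made, with which tool, use of strand and treatment of multi-mapping reads, is not given in the sources used here, so shares of reads between near-identical or overlapping genes are uncertain. The authors deposited TPM per Ensembl gene, without read counts, so no count test was run. The test by gene span described in the report gave read-equivalents, and 1 alternative used them as RPM, scaled to a fixed number of reads. Gene coordinates are those of GENCODE vM21 (GRCm38, 1-based), where 17882 of 18078 identifiers have the same start and end as in the files. Promoters and their positions come from RefSeq. Scaling to a fixed total means that a rise of abundant transcripts lowers all others.

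From the TPM values, log2(TPM + 1) was tested with limma 3.58.1 in R 4.3.3 (lmFit, eBayes with trend and robust options). One fit held all 15 libraries and 1 mean per group, for the 13887 genes that reached 1 TPM in 3 or more libraries (4191 did not). Contrasts were each treated group against untreated, each addition of IL-13 or IL-17A, and their interaction, with Benjamini-Hochberg adjustment over all tested genes. The script was tested on simulated data. Levels between genes were compared as RPM per kilobase of exon. Alternatives were a pseudocount of 0.1, no filter, a filter at 5 TPM, fits of the compared groups alone, median-ratio scaling, a term for the 6 libraries, the 9 libraries outside them, limma without trend and robust options, and each library left out in turn. RPM and the 6 libraries inside were added after seeing the data. Values in every library were given for members called in most comparisons or with the largest called changes, and from other lists up to 2 called genes with the largest change of a comparison. The members, lists, the set of 6 libraries and tests were chosen with earlier results of these data known. Python 3.11.15 and matplotlib 3.10.9 made the tables and plots.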

Additional observations from a re-analysis of the deposited data

How the results depend on the processing

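Every member had at least 80.9 read-equivalents in each library. The limits are 3 libraries a group, unknown replicate origin, a fixed TPM total, and a set of 6 libraries that holds the whole IL-33 with IL-13 group, so that group and set are told apart only through the other groups. No paired analysis was possible because the labels give no replicate numbers. Of 159 called member changes over the 8 simple comparisons, 99 were called under every setting run, and 158 kept their direction. The exception was Psat1 in the triple combination, which turned from -0.118 to 0.013 under median-ratio scaling and 0.008 with RPM, both uncalled. With a pseudocount of 0.1 all 159 were called. Calls lost were 29 with the term for the 6 libraries, 32 with the compared groups only, 18 under median-ratio scaling (beside the turned one), and 29 of the 105 that could be computed in the 9 libraries outside. The 9 libraries outside hold none of IL-33 with IL-13, and the 6 inside hold no untreated or IL-33 library, so comparisons with those groups could not be fitted there.

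Counts of members called against untreated (17 for IL-33, 29, 25 and 29 for the combinations with IL-17A, with IL-13 and with both) stayed within 1.5 times under every alternative, with ranges of 15 to 17, 26 to 30, 25 to 26 and 27 to 29 when 1 library was left out. The 18 of IL-13 added to IL-33 ranged from 15 to 17. The 18 of IL-13 added to IL-33 with IL-17A were 10 inside the 6 libraries, 10 outside and 8 with the compared groups only, and ranged from 13 to 21. The 12 of IL-17A added to IL-33 were 5 with the compared groups only and ranged from 5 to 17. The lowest counts came without IL-33 replicate 1 (6) or 2 (7) or IL-33 with IL-17A replicate 2 (5) or 3 (6). All tested genes shifted too, with 1355 called in the main fit, 520 with the compared groups only and 810 to 3057 when 1 library was left out. The 11 of IL-17A added to IL-33 with IL-13 were 3 with the compared groups only, 7 with the term and 20 with RPM. They ranged from 4 to 16: 4, 4 and 6 without IL-33 with IL-13 replicate 1, 2 or 3, and 5 and 4 without triple combination replicate 2 or 3. Calls of all tested genes were 1034 in the main fit, 574 with the compared groups only, 566 with the term and 1612 with RPM. They ranged from 492 to 1962 when 1 library was left out. The interaction, at 0, had 6 with RPM and 0 to 20 when 1 library was left out (20 without IL-33 with IL-17A replicate 1, 12 without triple combination replicate 1). For all tested genes it called 47 in the main fit, 1121 with RPM and 21 to 3038 when 1 library was left out. The 2 fits named called 3038 and 2281 genes. Without IL-33 with IL-17A replicate 1 the rest of that group lay inside the 6 libraries. Without triple combination replicate 1 the rest of that group lay outside them. In these 2 fits such a group and the set are told apart only through the other groups. The cause of these shifts was not tested, beyond the fewer libraries that fits of the compared groups hold.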
